A study of Homo sapiens with 6 samples.

Results

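Luminal epithelial identity genes are those whose products mark and shape the secretory, lumen-facing cells of glands such as the prostate. The group described here held 9 genes picked by symbol, KRT8, KRT18, KRT19, SPDEF, GRHL2, CDH1, EPCAM, CLDN3 and CLDN4, of 19571 genes in the expression table, and all 9 were found. They were measured by RNA-seq in LNCaP, a human line of prostate cancer cells that responds to androgen, to compare cells that carried Flag-tagged KDM4B, a histone lysine demethylase, with cells that carried the plenti6 control plasmid. Both were stable LNCaP derivatives, and both were held in RPMI medium with 10% CFBS, an abbreviation the labels do not spell out, for 3 days before harvest. The libraries labelled KDM4B numbered 3, with replicate numbers 1, 2 and 4, and the vector libraries also numbered 3, with numbers 1, 2 and 3. Nothing in the labels says whether replicates were separate cultures or whether each line was 1 clone or a pool, so the p-values below measure the spread between these libraries, which may be technical.

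In simple epithelia, type II keratin 8 pairs with type I keratins 18 and 19 to form the intermediate filaments of the cytoplasm. E-cadherin, encoded by CDH1, joins neighbouring cells at adherens junctions, EPCAM is a further adhesion protein of epithelial membranes, and claudins set the permeability of tight junctions. SPDEF is an ETS transcription factor of secretory epithelia, and GRHL2 is a Grainyhead-like transcription factor known to maintain expression of junction genes such as CDH1 and CLDN4.

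The promoters of SPDEF, CLDN3 and CLDN4 are shown because SPDEF had the largest change of the 9 genes and because CLDN3 and CLDN4, which lie close together on chromosome 7, had different calls. RefSeq sequence (GRCh38.p14) of the 250 bases before the gene start is printed in gene direction for SPDEF (chr6:34556330-34556579, minus strand), CLDN3 (chr7:73770271-73770520, minus strand) and CLDN4 (chr7:73830746-73830995, plus strand). A promoter was matched by symbol for 4 of the 9 genes. Capitals mark matches to the forkhead motif TNTTTAC or to the GC box GGGCGG on either strand.
SPDEF: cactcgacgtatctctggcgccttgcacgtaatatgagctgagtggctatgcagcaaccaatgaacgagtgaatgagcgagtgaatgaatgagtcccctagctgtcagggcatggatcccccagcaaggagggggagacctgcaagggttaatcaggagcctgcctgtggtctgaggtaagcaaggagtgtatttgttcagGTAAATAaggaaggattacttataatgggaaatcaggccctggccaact
CLDN3: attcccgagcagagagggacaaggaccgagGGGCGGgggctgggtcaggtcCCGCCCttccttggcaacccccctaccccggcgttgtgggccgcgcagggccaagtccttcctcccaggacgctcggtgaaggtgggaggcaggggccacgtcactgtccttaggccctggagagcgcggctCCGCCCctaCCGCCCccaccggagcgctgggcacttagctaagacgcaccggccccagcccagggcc
CLDN4: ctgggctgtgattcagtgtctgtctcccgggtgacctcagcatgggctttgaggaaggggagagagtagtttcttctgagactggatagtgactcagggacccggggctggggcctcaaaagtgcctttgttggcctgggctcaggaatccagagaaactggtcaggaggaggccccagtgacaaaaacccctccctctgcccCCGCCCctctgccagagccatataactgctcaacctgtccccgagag
The SPDEF sequence held 1 forkhead match, 49 to 43 bases before the start, a match that 9.58% of the 35116 RefSeq promoters searched also held. GC boxes, present in 42.6% of these promoters, occurred 4 times in the CLDN3 sequence and 1 time in the CLDN4 sequence. CLDN3 had the most GC-rich of the 3 sequences, at 71.6% G or C with 19 CpG dinucleotides, against 58.8% with 4 CpG for CLDN4, 50.8% with 6 CpG for SPDEF, and a median over all promoters of 58.0% with 11 CpG. The Grainyhead-like motif AACCNGTT (1.49% of promoters) and the E-box CAGGTG read by SNAI and ZEB factors (17.5%) were not found in the 3 sequences on either strand. The motifs were chosen after the values were seen, they do not overlap each other in these sequences, and a match is a description of letters only.

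Expression was deposited as FPKM, fragments scaled to transcript length and to the mapped total of the library, which carries no counts, so the depth behind each value is unknown. The KDM4B transcript itself measured 26.4 ± 0.71 FPKM in libraries labelled KDM4B and 25.1 ± 0.29 FPKM in vector libraries (SD, n = 3 each), a log2 difference of 0.07 that did not pass the test as deposited (limma, adjusted p = 0.113). After the scaling described below, KDM4B was called higher, by 0.31 on the log2 scale (limma, adjusted p = 1.93e-05), and its groups did not overlap on either scale. Ribosomal RNA genes took 8.14% to 10.5% of the FPKM in libraries labelled KDM4B and 0.144% to 0.473% in vector libraries, and their part in the results was not tested beyond the scalings below. Values are given as deposited and after division by each library's median of ratios over genes with a mean of at least 1 FPKM, 0.904 to 0.942 in libraries labelled KDM4B and 1.09 in each vector library. The median log2 change of all tested genes was -0.22 as deposited and -0.00048 after this scaling. Markers of the LNCaP lineage were present in all 6 libraries: HOXB13 averaged 214 FPKM in libraries labelled KDM4B against 165 FPKM in vector libraries, FOXA1 111 against 156 FPKM and KLK3 441 against 2212 FPKM.

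As deposited, 7 of the 8 luminal genes that could be tested fell in libraries labelled KDM4B and none rose. The test was limma on log2(FPKM + 1) with adjustment over 12148 genes at 0.05, and it called 60.3% of all tested genes lower and 13.4% higher, so the count of 7 lower is read against a table in which most genes fell. After scaling, 7 of the 8 genes were called lower and 1, CLDN4, was called higher, against 33.9% and 34.1% of 12139 tested genes. The median log2 change of the 8 genes was -0.41 as deposited and -0.17 after scaling. Dividing instead by the FPKM sum without ribosomal RNA genes gave the same 7 lower and 1 higher, against 35.0% and 32.9% of tested genes. Values of the groups did not overlap for 7 genes lower and 0 higher as deposited, against 61.7% and 14.6% of tested genes, and for 6 lower and 1 higher after scaling, against 35.8% in each direction. KRT19 stayed under the filter of a mean of 1 FPKM. In bulk RNA a smaller number of cells that express a gene and a lower level per cell cannot be told apart.

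**Figure D1:**
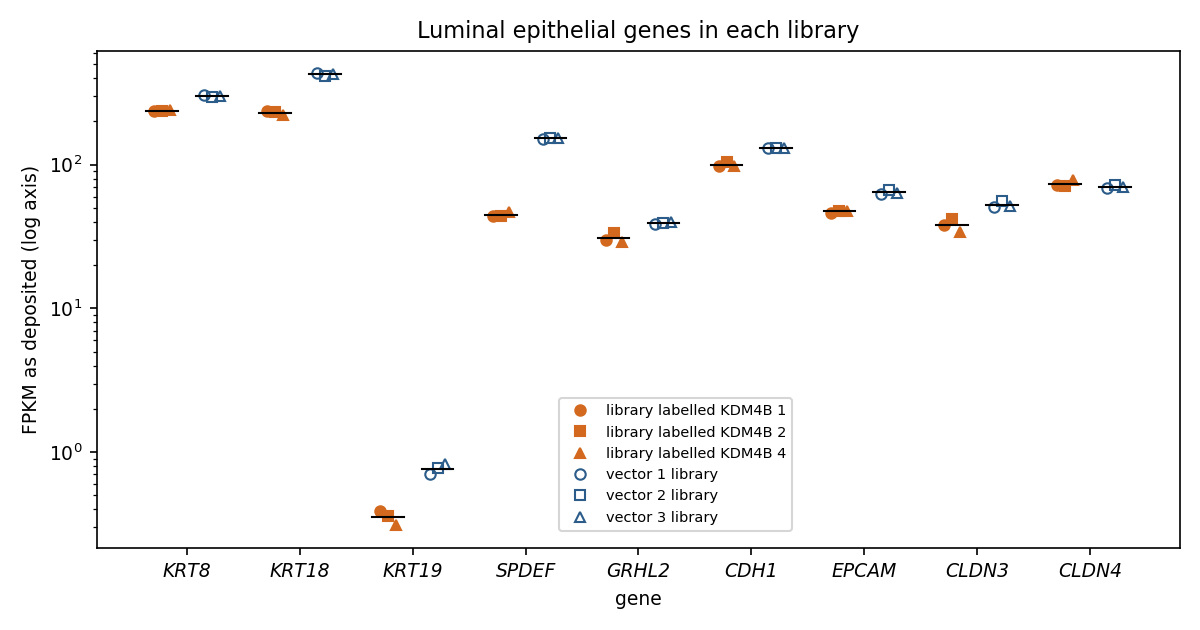
FPKM as deposited (log axis) of the 9 genes in each library, with filled symbols for the 3 libraries labelled KDM4B and open symbols for the 3 vector libraries. SPDEF shows the widest gap, 43.7 to 46.6 FPKM in libraries labelled KDM4B against 152 to 154 FPKM in vector libraries, and CLDN4 is the only gene above 1 FPKM whose groups overlap.

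The keratin pair was the most abundant part of the group, and its type I partner fell further than its type II partner. KRT18 measured 238, 233 and 221 FPKM in libraries labelled KDM4B and 432, 416 and 428 FPKM in vector libraries. All 3 labelled libraries lay far below all 3 vector libraries, and the change was -0.88 ± 0.036 on the log2 scale (SE; limma, adjusted p = 2.53e-09). After scaling it was -0.64 (limma, adjusted p = 1.21e-07). KRT8 measured 235, 235 and 239 FPKM in libraries labelled KDM4B and 306, 297 and 301 FPKM in vector libraries. These groups did not overlap either, but the change was smaller, at -0.35 ± 0.031 (SE; limma, adjusted p = 1.25e-06) as deposited and -0.11 (adjusted p = 0.00843) after scaling. The RefSeq spans of KRT8 and KRT18 overlap on chromosome 12, both have many processed pseudogenes, and the treatment of strand and shared reads in the counting is not given, so the split of reads between such loci is uncertain.

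KRT19, the other type I keratin, was close to the lower limit of the table. It measured 0.39, 0.36 and 0.31 FPKM in libraries labelled KDM4B and 0.70, 0.77 and 0.83 FPKM in vector libraries. The groups did not overlap, and in a fit without the filter on low values, which called 40.1% of 19312 genes lower, the log2 change was -0.38 (limma, adjusted p = 0.000333). Because 1 is added to each value before the log, this understates the change of so low a gene.

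The 2 transcription factors moved by very different amounts. SPDEF measured 43.7, 43.8 and 46.6 FPKM in libraries labelled KDM4B and 152, 154 and 152 FPKM in vector libraries. Its mean in libraries labelled KDM4B was 0.293 times the vector mean, and the log2 change was -1.75 ± 0.037 (SE; limma, adjusted p = 3.07e-11) as deposited and -1.51 (adjusted p = 5.96e-10) after scaling. It was the only one of the 8 tested genes whose mean was at least 2-fold lower, a size reached by 5.39% of all tested genes. Within a library it stood higher than 91.5% to 92.4% of all listed genes in libraries labelled KDM4B and 97.7% to 97.8% in vector libraries. GRHL2 measured 29.9, 33.5 and 29.2 FPKM in libraries labelled KDM4B and 38.6, 39.4 and 40.1 FPKM in vector libraries. Its groups were apart as deposited, with a log2 change of -0.34 ± 0.051 (SE; limma, adjusted p = 8.44e-05). After scaling the groups overlapped and the change was -0.11 (limma, adjusted p = 0.0477). That scaled call was lost when any library except KDM4B replicate 2 was left out (limma, adjusted p between 0.0553 and 0.169). It was also lost with a replicate block (limma, adjusted p = 0.284), a fit whose group difference rests on replicates 1 and 2 alone.

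**Figure D2:**
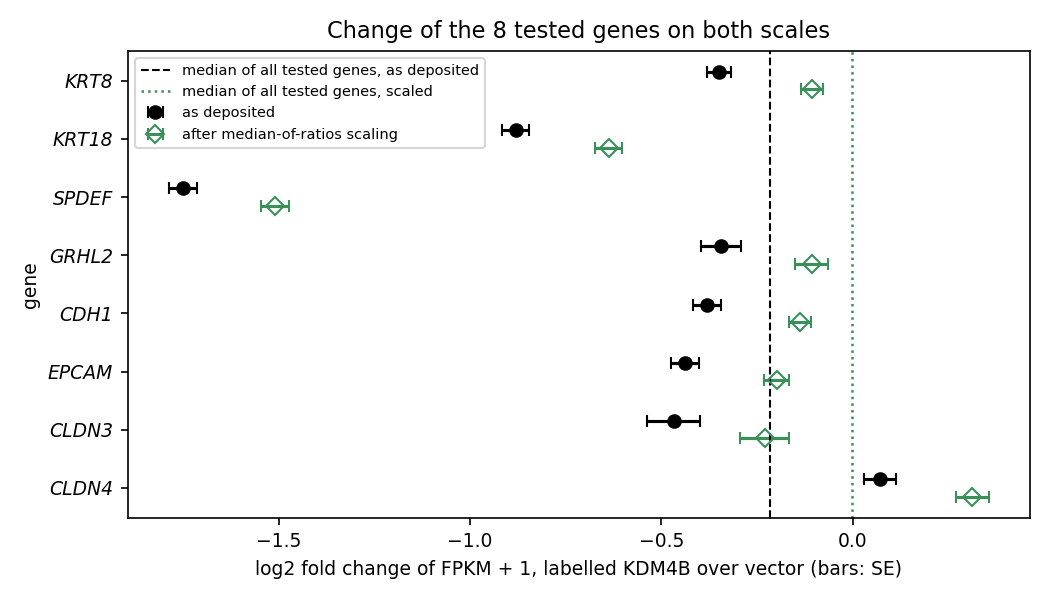
Log2 fold change of FPKM + 1, libraries labelled KDM4B over vector, of the 8 tested genes as deposited (filled circles) and after median-of-ratios scaling (open diamonds), with bars for the SE and vertical lines for the median of all tested genes. SPDEF at -1.75 and KRT18 at -0.88 lie farthest to the left, and CLDN4 is the only gene to the right of 0 on both scales.

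Both adhesion genes fell by similar amounts. CDH1 measured 97.8, 105 and 97.6 FPKM in libraries labelled KDM4B and 130, 130 and 131 FPKM in vector libraries, with a log2 change of -0.38 ± 0.037 (SE; limma, adjusted p = 2.82e-06). EPCAM measured 46.5, 48.0 and 47.6 FPKM in libraries labelled KDM4B and 62.9, 66.7 and 63.9 FPKM in vector libraries, with a log2 change of -0.44 ± 0.038 (SE; limma, adjusted p = 9.96e-07). Neither gene's groups overlapped, as deposited or scaled. After scaling the changes were -0.14 for CDH1 (limma, adjusted p = 0.00168) and -0.20 for EPCAM (adjusted p = 0.000382), so both kept a call at a smaller size. The median of all tested genes moved as well, from -0.22 as deposited to -0.00048 after scaling.

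Of the claudin neighbours CLDN3 fell, while CLDN4 did not pass the test as deposited and was called higher after scaling. CLDN3 measured 38.2, 42.2 and 33.8 FPKM in libraries labelled KDM4B and 51.1, 56.0 and 51.4 FPKM in vector libraries. It fell by 0.47 ± 0.069 on the log2 scale (SE; limma, adjusted p = 7.37e-05), and the scaled change was -0.23 (adjusted p = 0.00883). CLDN4 measured 72.4, 71.5 and 77.7 FPKM in libraries labelled KDM4B and 68.4, 72.5 and 69.6 FPKM in vector libraries. As deposited its groups overlapped and the log2 difference of 0.07 ± 0.042 (SE) did not pass the test (limma, adjusted p = 0.143). After scaling CLDN4 measured 80.1, 75.9 and 84.9 in libraries labelled KDM4B and 62.9, 66.5 and 63.9 in vector libraries, groups that no longer overlapped, and the change of 0.31 passed the test (limma, adjusted p = 9.69e-05). The call on CLDN4 thus depends on the scaling, while its sign does not.

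Ordered by FPKM, the vector libraries gave KRT18, KRT8, SPDEF, CDH1, CLDN4, EPCAM, CLDN3, GRHL2 and KRT19 from high to low, with no overlap between neighbours. In libraries labelled KDM4B the order was KRT8, KRT18, CDH1, CLDN4, EPCAM, SPDEF, CLDN3, GRHL2 and KRT19. There KRT8 and KRT18 overlapped, at 235 to 239 and 221 to 238 FPKM, and so did EPCAM and SPDEF, at 46.5 to 48.0 and 43.7 to 46.6 FPKM. CLDN4 stood higher than 95.3% to 95.9% of listed genes in libraries labelled KDM4B and 94.1% to 94.5% in vector libraries.

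Ratios of members within a library do not depend on the scaling. The ratio of KRT18 to KRT8 was 1.01, 0.992 and 0.924 in libraries labelled KDM4B and 1.41, 1.40 and 1.42 in vector libraries. The ratio of CLDN4 to CLDN3 was 1.90, 1.70 and 2.30 in libraries labelled KDM4B and 1.34, 1.29 and 1.35 in vector libraries. That of SPDEF to GRHL2 was 1.46, 1.31 and 1.60 in libraries labelled KDM4B and 3.93, 3.92 and 3.79 in vector libraries. In these 3 pairs the groups did not overlap, which gave p = 0.1 each in a two-sided exact permutation test, the smallest p that 3 against 3 libraries allow, and 0.133 after Benjamini-Hochberg adjustment over the 4 pairs. The ratio of CDH1 to EPCAM was 2.11 ± 0.066 in libraries labelled KDM4B and 2.02 ± 0.063 in vector libraries (SD, n = 3 each; exact permutation p = 0.3), and its groups overlapped. The pairs were chosen after values were seen.

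**Figure D3:**
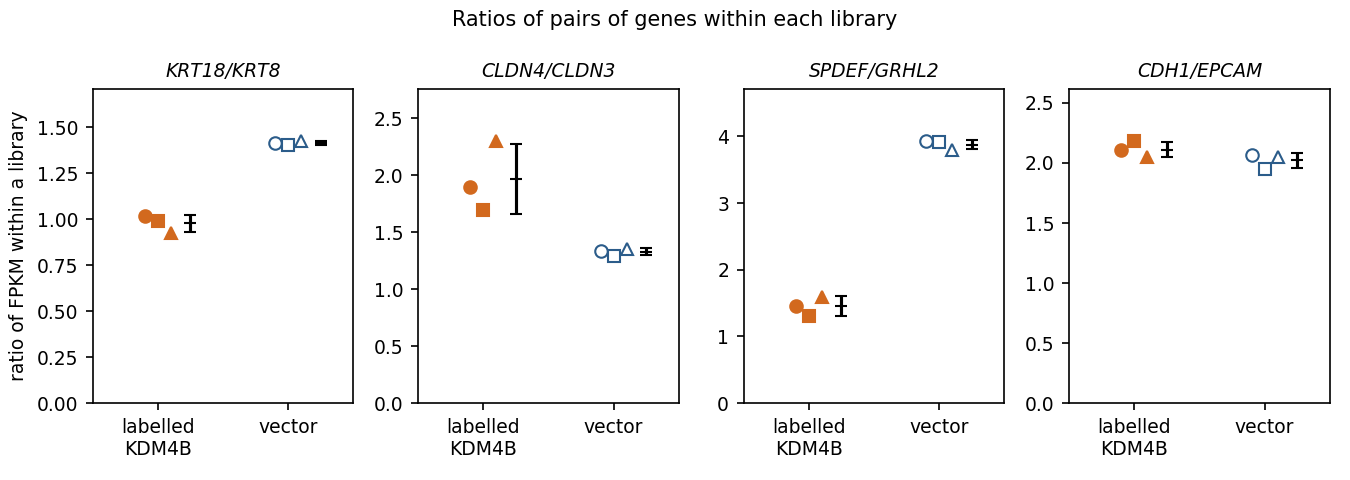
Ratio of FPKM of 4 pairs of genes within each library (points), with the mean and SD of each group, libraries labelled KDM4B on the left and vector libraries on the right of each panel. SPDEF to GRHL2 averages 1.46 in libraries labelled KDM4B against 3.88 in vector libraries, and KRT18 to KRT8 averages 0.977 in libraries labelled KDM4B against 1.41 in vector libraries.

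A second readout came from reads counted over skipped exon (SE) events, each a cassette exon with its flanking exons and with 1 count per library for both splice forms. KRT18, KRT19, CLDN3 and CLDN4 had no event of any type analysed. On the most-read event of each gene, 3 of the 5 luminal genes with an event, SPDEF, EPCAM and CDH1, were called lower and none higher (edgeR quasi-likelihood test with TMM scaling), against 22.9% lower and 22.8% higher of 8556 genes. SPDEF had 538, 545 and 602 reads in libraries labelled KDM4B and 1938, 1901 and 2023 reads in vector libraries, a log2 change of -1.58 (edgeR, adjusted p = 1.15e-24). EPCAM had 1247, 1182 and 1265 reads in libraries labelled KDM4B and 1598, 1676 and 1679 reads in vector libraries, a change of -0.21 (edgeR, adjusted p = 0.00249). For both genes the read counts did not overlap between groups.

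CDH1 had 1932, 2221 and 2046 reads in libraries labelled KDM4B and 2593, 2648 and 2611 reads in vector libraries, a log2 change of -0.13 (edgeR, adjusted p = 0.0331). This call was lost without KDM4B replicate 1 (adjusted p = 0.211), without vector replicate 2 (0.0788) or 3 (0.102), with a replicate block (0.104) and with DESeq2 (0.0514). In the block fit the group difference comes from replicates 1 and 2 alone. KRT8 had 1274, 1255 and 1221 reads in libraries labelled KDM4B and 1595, 1435 and 1420 reads in vector libraries, a difference of -0.03 after TMM scaling that did not pass the test (edgeR, adjusted p = 0.701). GRHL2 had 262, 224 and 271 reads in libraries labelled KDM4B and 328, 335 and 312 reads in vector libraries, a difference of -0.15 that did not pass either (edgeR, adjusted p = 0.255). The raw reads of both genes were lower in every library labelled KDM4B than in any vector library; the fold changes are after scaling.

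When every SE event was tested on its own, a step added after the data were seen, all 6 testable SPDEF events were called lower, with log2 changes between -1.72 and -1.47, against 20.2% of 36440 events lower and 20.1% higher. These events share exons and reads, so they are not independent measurements of the gene. Both EPCAM events were called lower, at -0.23 and -0.20, as was 1 of 3 CDH1 events. The 3 GRHL2 events had changes of 0.12, -0.19 and -0.14 and did not pass the test (edgeR, adjusted p between 0.175 and 0.412).

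**Figure D4:**
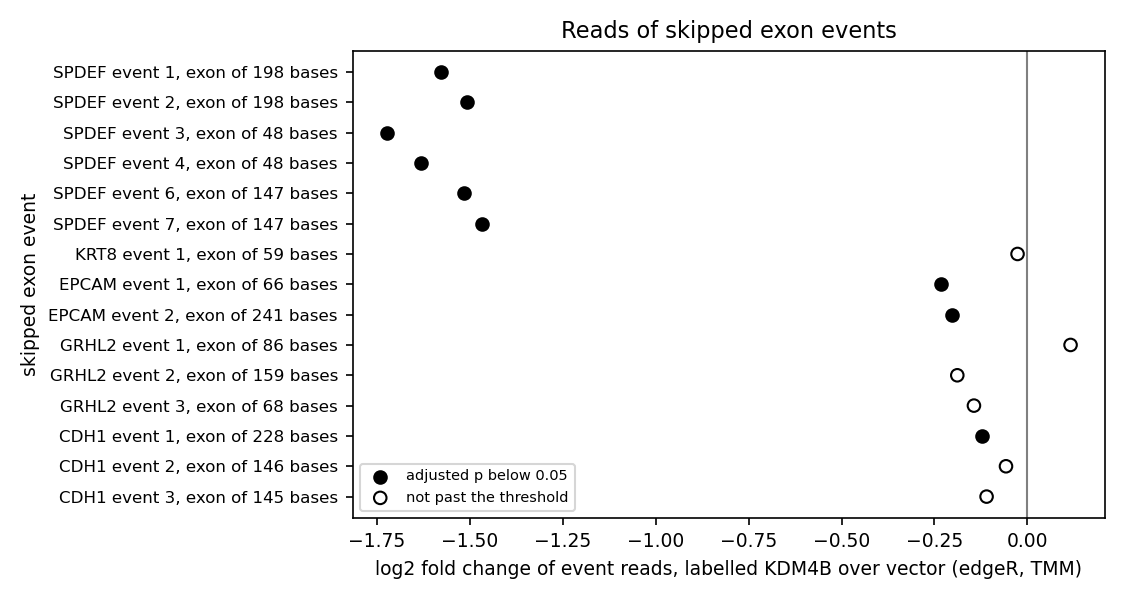
Log2 fold change of reads, libraries labelled KDM4B over vector (edgeR with TMM scaling), of each tested SE event of the luminal genes, filled where the adjusted p was below 0.05. The 6 SPDEF events lie between -1.72 and -1.47, and all others lie between -0.23 and 0.12.

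Reads of single exons could be separated for 1 event, a pair of SPDEF exons of 48 and 198 bases that the authors' table lists as mutually exclusive. Reads of the 48-base exon numbered 81, 77 and 91 in libraries labelled KDM4B and 309, 306 and 344 in vector libraries. Reads of the 198-base exon numbered 433, 439 and 467 in libraries labelled KDM4B and 1456, 1457 and 1519 in vector libraries. Reads of both exons thus fell together. Other SE events of SPDEF count these exons as neighbours, and their reads include some that join the 48-base exon to the 198-base exon. Both exons thus also occur in the same transcript and are not strict alternatives. The share below is one of reads over exons of unlike length, not corrected for length, and does not measure a choice between splice forms. The 48-base exon took 15.7% ± 0.698 of the reads in libraries labelled KDM4B and 17.8% ± 0.601 in vector libraries (SD, n = 3 each), a log2 odds ratio of -0.22 that did not pass the test over 2997 events (edgeR, adjusted p = 0.637), in which the share of the first exon was called lower in 0.667% of events and higher in 0.968%. No read skipped both exons, of 1588 reads in libraries labelled KDM4B and 5391 in vector libraries, which allows a skipping share of up to 0.189% in libraries labelled KDM4B and 0.0556% in vector libraries, for counting error only. The event positions lie outside the GRCh38.p14 span of SPDEF, so their build is unsettled and they are not printed.

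Other genes of the same cells were followed in lists of related function, of which 8 lists had at least 3 tested genes. These lists were drawn up with earlier results of these data known, so their counts are descriptions. None of the 6 other keratins of simple epithelia passed the filter. Of all tested genes 60.3% were called lower and 13.4% higher as deposited, and 33.9% and 34.1% after scaling, and each count below is to be set beside these shares. Among 12 tested epithelial transcription factors, 6 fell and 4 rose as deposited (median log2 change -0.30). The share lower was under the 60.3% of all tested genes. After scaling 6 fell and 5 rose (median -0.10), shares above the 33.9% lower and 34.1% higher of all tested genes. CREB3L4, a membrane-bound transcription factor enriched in prostate, averaged 42.7 FPKM in libraries labelled KDM4B against 127 FPKM in vector libraries (log2 change -1.55). EHF, an epithelial ETS factor like SPDEF, averaged 83.6 FPKM in libraries labelled KDM4B against 165 FPKM in vector libraries (-0.98), KLF4 averaged 2.10 against 8.03 FPKM (-1.54) and OVOL2, a repressor of mesenchymal genes, averaged 4.23 against 8.16 FPKM (-0.81). The 4 falls named passed limma's test on both scales.

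Among 22 tested claudin and tight junction genes, 11 fell and 5 rose as deposited (median -0.15), and 7 fell and 9 rose after scaling (median 0.08). The share lower was under the 60.3% of all tested genes as deposited and near the 33.9% after scaling. CLDN7 averaged 109 FPKM in libraries labelled KDM4B against 228 FPKM in vector libraries (log2 change -1.06), CLDN12 16.7 against 39.2 FPKM (-1.18) and TJP1, the scaffold ZO-1, 33.2 against 52.1 FPKM (-0.64). LLGL2, a cell polarity protein, rose to 40.5 FPKM, against 21.6 FPKM in vector libraries (0.88). The balance of adherens junction and desmosome genes turned with the scaling, with 8 of 19 falling and 5 rising as deposited (median 0.03) and 1 falling and 11 rising after scaling (median 0.21). DSC2, a desmosomal cadherin, averaged 97.8 FPKM in libraries labelled KDM4B against 42.9 FPKM in vector libraries (1.17), JUP, or plakoglobin, 131 against 95.4 FPKM (0.45), EVPL, or envoplakin, 18.1 against 13.3 FPKM (0.42), and PERP, a desmosomal membrane protein, 24.6 against 33.3 FPKM (-0.42). All 8 genes named here passed limma's test on both scales with the same sign, DSC2 and LLGL2 upward while CDH1, CLDN3 and CLDN7 were lower.

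Among 11 tested EPCAM partners and processing proteases, 9 fell and 2 rose (median -0.25), but after scaling 4 fell and 3 rose (median -0.03), a share lower that was near the 33.9% of all tested genes. Among the falls was NCSTN, a subunit of gamma-secretase, at 40.6 FPKM in libraries labelled KDM4B against 58.1 FPKM in vector libraries (log2 change -0.51). The tetraspanin CD9 averaged 159 FPKM in libraries labelled KDM4B against 204 FPKM in vector libraries (-0.36) and the sheddase ADAM17 4.09 against 5.49 FPKM (-0.35). Among 18 other luminal and secretory markers, 12 fell and 3 rose (median -0.34; after scaling 8 and 6, median -0.15), against 60.3% of all tested genes lower as deposited and 33.9% after scaling. TMPRSS2, an androgen-regulated protease, averaged 76.7 FPKM in libraries labelled KDM4B against 421 FPKM in vector libraries (-2.44) and the sialyltransferase ST6GALNAC1 1.15 against 16.4 FPKM (-3.01); both changes exceeded that of SPDEF.

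Markers of other states were few and mixed. SNAI2, VIM and ITGB4 passed the filter only through the group in which each was high, so the counts of their lists support nothing, and the added 1 FPKM understates their changes. Of the EMT-inducing repressors 3 were tested, and SNAI2 averaged 0.19 FPKM in libraries labelled KDM4B against 3.79 FPKM in vector libraries (log2 change -2.01, with a mean 0.051 times the vector mean), while TCF3 rose to 24.0 FPKM, against 19.5 FPKM (0.29), and SNAI1 to 1.98 FPKM, against 1.28 FPKM (0.40). Of the basal markers 3 were tested, 2 of them higher: LAMA3, a laminin chain, averaged 52.5 FPKM in libraries labelled KDM4B against 17.9 FPKM in vector libraries (1.50) and ITGB4 2.77 against 0.99 FPKM (0.92), while ITGA6, its partner, averaged 6.79 against 10.8 FPKM (-0.59). The summed basal list ran from 60.1 to 67.2 FPKM in libraries labelled KDM4B and from 30.3 to 31.4 FPKM in vector libraries, most of it LAMA3. The basal keratins KRT14, KRT15 and KRT17, by contrast, were below 1 FPKM in every library. KRT5 and TP63 were looked up by symbol without a match, so these basal markers were not analysed here. Of the mesenchymal markers 4 were tested, 3 of them higher: FN1, or fibronectin, averaged 33.2 FPKM in libraries labelled KDM4B against 10.9 FPKM in vector libraries (1.52), ACTA2 10.6 against 3.53 FPKM (1.35) and COL1A1 2.92 against 2.36 FPKM (0.22), while VIM averaged 0.48 against 3.84 FPKM (-1.71, with a mean 0.124 times the vector mean). The summed mesenchymal list ran from 45.5 to 51.2 FPKM in libraries labelled KDM4B and from 20.3 to 21.4 FPKM in vector libraries. FN1 and ACTA2 made up most of the sum in both groups. N-cadherin (CDH2), the mesenchymal counterpart of CDH1, was at most 0.01 FPKM in any library. Of the immune, endothelial and neuroendocrine markers 2 were tested, CD68 and ENO2, and neither was called as deposited, while ENO2, a neuronal enolase, was called higher after scaling. The immune and endothelial markers PTPRC, CD3E and PECAM1 were below 0.1 FPKM throughout and CD14 was at most 0.16 FPKM. Under the filter, the endothelial marker VWF measured 0.37 to 0.43 FPKM in libraries labelled KDM4B and 0.84 to 0.96 FPKM in vector libraries, and the neuroendocrine marker SYP averaged 0.68 FPKM in libraries labelled KDM4B and 1.03 FPKM in vector libraries. Without the filter both were called lower as deposited (limma, adjusted p = 0.000141 for VWF and 0.00389 for SYP), as were 40.1% of 19312 genes. SYP thus differed in direction from ENO2, but ENO2 was called only after scaling, where SYP was not tested. The part of these markers in the luminal changes was not tested.

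**Figure D5:**
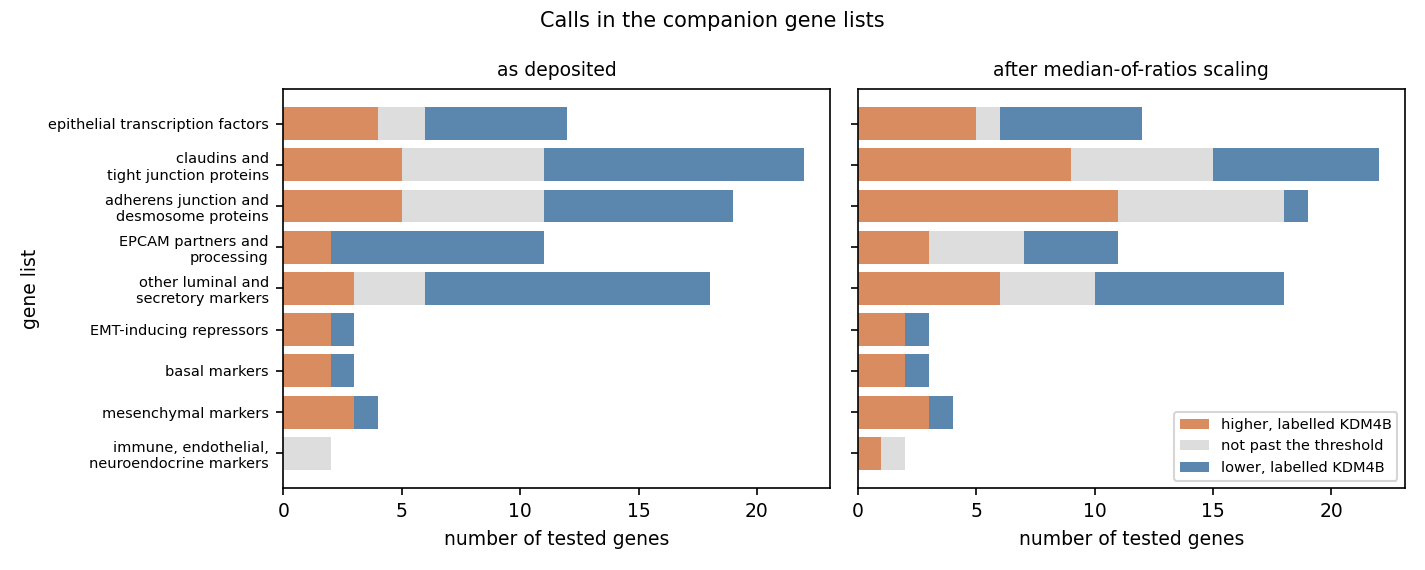
Number of tested genes of each list called higher, called lower or not past the threshold in libraries labelled KDM4B (limma, adjusted p below 0.05), as deposited on the left and after median-of-ratios scaling on the right. Adherens junction and desmosome genes show 5 higher and 8 lower as deposited, and 11 higher and 1 lower after scaling.

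SPDEF's profile over the 6 libraries was matched most closely by 3 other tested genes, by Euclidean distance between centred log2(FPKM + 1) values. PTPRM, a receptor tyrosine phosphatase of cell contacts, averaged 4.95 FPKM in libraries labelled KDM4B against 18.7 FPKM in vector libraries (distance 0.0975), SYTL1, a synaptotagmin-like protein of vesicle trafficking, 7.83 against 27.3 FPKM (0.108), and MBOAT2, a lysophospholipid acyltransferase, 16.1 against 56.5 FPKM (0.11). With 6 libraries in 2 groups, a near profile is above all a group difference of like size.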

How the data were processed

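Gene FPKM values and read counts per splicing event, not normalized, were analysed as deposited by the authors, per the file headers, from 6 LNCaP RNA-seq libraries grouped by title. The submitters' processing notes name HISAT, StringTie, Cufflinks, GRCh38 and hg38, with no role or version. Annotation and splicing caller were not given in the sources used here. Total RNA was extracted with Trizol, per the labels.

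FPKM were tested with limma 3.58.1 in R 4.3.3 (log2 with a pseudocount of 1, mean at least 1 FPKM, mean-variance trend, two-sided, Benjamini-Hochberg over all tested genes). SE counts of at least 10 reads in each library were tested with edgeR 4.0.16 (glmQLFTest). Forms of MXE events were recovered as the sum of the paired SE counts minus the MXE count, giving the skipping count multiplied by 2; 19478 of 19482 values were even and not negative. The planned form test of SE inclusion was not run for these genes, for which only 1 event had counts recovered for each exon. No library was a copy of another: chi-square over its degrees of freedom was 2.42 to 2.96 for pairs of one group and 28.5 to 33.8 otherwise. Scripts were tested on simulated data.

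Named genes were the 9 genes, up to 4 genes with the lowest p of each list, KDM4B, and the 3 nearest profiles to the gene of largest change. Some genes that this rule names are not reported here. The genes and the lists (174 symbols) were chosen with earlier results of these data known. Alternatives were another pseudocount, filter, scaling and test (DESeq2 1.42.0 on event counts), a block for replicate number, and leaving out single libraries.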

Additional observations from a re-analysis of the deposited data

How the results depend on the processing

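SPDEF, KRT18, KRT8, CDH1, EPCAM and CLDN3 kept their direction and their limma call under all 19 alternatives, with log2 changes of -1.78 to -1.48 for SPDEF, -0.90 to -0.61 for KRT18, -0.36 to -0.084 for KRT8, -0.41 to -0.12 for CDH1, -0.46 to -0.18 for EPCAM and -0.54 to -0.15 for CLDN3. GRHL2 (-0.40 to -0.060) kept its call in 13 and CLDN4 (0.030 to 0.35) stayed uncalled in 10. GRHL2 lost its call only where median-of-ratios scaling was joined with the replicate block or with a library left out. CLDN4 was called only on values rescaled in either way. The cause of the difference between scalings was not tested. Counts over all genes moved with the scaling: against 7323 lower and 1628 higher as deposited, median-of-ratios scaling gave 4114 lower and 4136 higher, an equal FPKM sum without ribosomal RNA genes 4244 and 3995, and scaling with the replicate block 3664 and 3657, each with 1 of the 8 genes, CLDN4, higher instead of 0. Leaving out 1 library gave 6830 to 7454 lower and 1440 to 1587 higher genes as deposited, with 7 of the 8 luminal genes lower each time; after scaling it gave 3790 to 3952 lower and 3823 to 3989 higher genes, with 6 to 7 of the 8 genes lower and 1 higher. Scaling with the block or with a library left out, the ratios and the test of every SE event were chosen after seeing the data. Without the filter KRT19 was also called. By SE reads, KRT8 stayed uncalled under all 10 alternatives, with log2 changes of -0.056 to 0.012.

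Replicate numbers 1 and 2 occur in both groups, but deviations of same-numbered libraries correlated at -0.0238 and 0.135, so the numbers were not taken as pairs. Numbers 3 and 4 each occur in 1 group only, so a replicate block draws the group difference from the libraries numbered 1 and 2. Such a block gave 6877 lower and 1582 higher genes as deposited, with 7 of the 8 luminal genes lower, and 2 of 5 lower by SE reads against 3 without it. FPKM give no depth, so the precision of KRT19 in particular cannot be stated.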

Other observations

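Some keratins outside the luminal group, chosen after their values were seen, also differed between groups. KRT10, a type I keratin of differentiating epidermis, measured 6.15, 7.06 and 6.89 FPKM in libraries labelled KDM4B and 10.2, 9.53 and 9.84 FPKM in vector libraries (limma, log2 change -0.50, adjusted p = 9.56e-06). KRT6C measured 0, 0 and 0.05 FPKM in libraries labelled KDM4B and 0.73, 0.60 and 0.79 FPKM in vector libraries, while its near-identical relatives KRT6A and KRT6B were at most 0.07 FPKM, and reads shared among them make the assignment uncertain. KRT75 measured 0.35, 0.21 and 0.41 FPKM in libraries labelled KDM4B and 0.06, 0.04 and 0.06 FPKM in vector libraries. KRT80 measured 1.07, 1.28 and 0.98 FPKM in libraries labelled KDM4B and 0.91, 0.49 and 0.59 FPKM in vector libraries. The last 3 lay under the filter of a mean of 1 FPKM.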
